A study of Arabidopsis thaliana with 19 samples.

Results

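The histone genes of the Arabidopsis root tip were followed over 7 time points. A set of 41 histone loci was taken by locus identifier from a table of 33201 loci. No measured level entered the rule, but earlier results of these data were known when the set was chosen. It held 26 replication-coupled genes (8 for H4, 5 for H3.1, 4 for H2A and 9 for H2B), 12 variant genes (3 for H3.3, 2 for H2A.X, 3 for H2A.W, 3 for H2A.Z and 1 for CENH3) and 3 genes for the linker histone H1. All seedlings carried PET111:GFP, which lights up the mature columella at the very tip. Cells without GFP were sorted from protoplasts of root tips and profiled by RNA-seq, a population that the study regards as mostly stem cells. Seedlings were 4 days old (4D), 4 days and 8 h (4D 8H), 4 days and 16 h (4D 16H), 5 days (5D), 5 days and 8 h (5D 8H), 5 days and 16 h (5D 16H) or 6 days (6D). No other treatment or genotype was used, the medium held sucrose, and the study's methods state that every harvest fell at one time of day. The 4D 8H and 5D 16H time points had 2 libraries each and the other 5 had 3.

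Nucleosomes wrap DNA around H2A, H2B, H3 and H4, and H1 binds the linker DNA between them. The replication-coupled genes, H3.1 among them, are transcribed mainly in S phase, when new chromatin is assembled behind the replication fork. Variants have other routes into chromatin: H3.3 is placed at transcribed genes outside replication, H2A.Z near the starts of genes, H2A.W in heterochromatin and CENH3 at centromeres, while H2A.X is phosphorylated at DNA breaks. In dividing root cells the balance of H3.1 and H3.3 is known to follow how often cells divide. Plant histone mRNAs carry poly(A) tails, unlike the replication-coupled histone mRNAs of animals, so that kits that select poly(A) RNA capture them.

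A short octamer known from plant histone promoters, CGCGGATC, was searched on both strands of the promoters, because it marks what many of these genes share apart from their levels. Promoters ran from 250 bases before to 50 bases after the gene start in the RefSeq TAIR10.1 assembly, and all 41 loci were matched by identifier. The octamer was in 10 of the 41 histone promoters (24.39%) and in 40 of all 27443 protein-coding promoters (0.146%). Its 10 carriers were 3 of the 5 H3.1 genes, 2 of 8 H4, 2 of 4 H2A, HTA6 of H2A.W, AT4G40040 of H3.3 and AT1G06760 of H1. The 60-base windows of 6 carriers are shown 5′ to 3′ on the gene's strand, with the octamer in capitals. They comprise the 3 H3.1 carriers, both H4 carriers (of which AT5G59690 fell into 5D and AT1G07660 did not pass the test) and the variant gene HTA6.
AT1G09200 (H3.1, chr1:2972391-2972450, minus strand): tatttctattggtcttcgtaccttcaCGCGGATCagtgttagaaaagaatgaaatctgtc
AT5G10400 (H3.1, chr5:3271044-3271103, minus strand): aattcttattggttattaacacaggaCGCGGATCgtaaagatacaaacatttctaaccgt
AT5G65360 (H3.1, chr5:26120674-26120733, minus strand): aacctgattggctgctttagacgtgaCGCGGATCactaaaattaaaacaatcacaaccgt
AT5G59690 (H4, chr5:24051377-24051436, plus strand): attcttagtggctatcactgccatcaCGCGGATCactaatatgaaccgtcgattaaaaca
AT1G07660 (H4, chr1:2368681-2368740, plus strand): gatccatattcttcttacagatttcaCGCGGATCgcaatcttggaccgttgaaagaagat
HTA6 (H2A.W, chr5:24116303-24116362, minus strand): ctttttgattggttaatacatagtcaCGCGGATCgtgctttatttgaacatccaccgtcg
In these 6 windows the octamer began between 126 and 71 bases before the gene start. In the carriers not shown the first octamer began 74 (HTA10), 68 (HTA13), 28 (AT1G06760) and 17 (AT4G40040) bases before it. In HTA13, AT1G06760 and AT4G40040 it lay on the opposite strand. AT1G09200 and HTA10 each held a second octamer nearer the start. A second string, the hexamer ACGTCA, was in 8 of the 9 H2B promoters and in 9.19% of all promoters. Strings bound by E2F factors (TTTCCCGC, TTTGGCGC, TTTCGCGC or TTTGCCGC) were in the H4 genes AT3G45930 and AT3G46320 and the H2B gene HTB2, which is 7.317% of the 41 against 1.76% of all promoters. TTTGAA, part of the element bound by the TCX2 family, was in 39.024% of histone promoters and 43.687% of all promoters. TTCGAA, another form of that element, was in 4.878% and 9.062%. None of the strings searched contains another, and a match describes the letters alone.

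Most histone families were encoded by several loci with like products. The 8 H4 loci encoded 1 protein of 103 residues, and their coding sequences were 78.8% to 98.1% identical. The 5 H3.1 loci encoded 1 protein of 136 residues, with coding identities of 80.3% to 89.5%. H3.1 differed from the H3.3 of AT4G40040 at 4 positions (31, 41, 87 and 90, counted after the start methionine). No histone gene had the same 19 values as another locus, although 44 of the loci tested did. The promoters of AT3G45930 and AT3G46320 differed at 4 of 300 bases, and 11.1% and 12.1% of 100-base stretches of their transcripts were shared, so that reads could have been split between them. AT3G27360 (H3.1) overlapped SDH2-1, a gene of respiratory complex II on the same strand, over 328 bases (31.2% of its 100-base stretches). GAMMA-H2AX (H2A.X), HTA12 (H2A.W), HTB9 (H2B) and AT1G06760 (H1) overlapped loci on the opposite strand (23.9% to 42.9% of stretches), and whether strand was used in counting is not given in the sources used here. The H4 genes AT1G07660 and AT1G07820 shared 5.26% and 3.89% of theirs. Values of all these genes may therefore hold reads of another locus.

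Levels are given as FPKM, fragments scaled by transcript length and by the mapped reads of the library. A gene is called changed where the Benjamini-Hochberg adjusted p of limma, over the 18087 loci whose mean reached 1 FPKM, was below 0.05. Changes are differences in log2(FPKM + 1) with their standard error. Depth could only be estimated from the spacing of low values, of which 27.7% to 46.9% came out whole within 0.05, so it is approximate. It was about 10.5 M to 38.8 M reads in 18 libraries and about 1.22 M reads in 5D 16H replicate 2. In 6D replicate 3, 36 of 40 histone genes were the lowest of the 3 6D libraries, and 12 were the lowest of all 19. Its median deviation from the 6D mean was −0.37 (log2) for replication-coupled genes, −0.23 for variants and −0.09 for all loci. Among cell type markers, the sum of 5 stem cell niche genes (WOX5, PLT1, PLT2, SCR and SHR) was 20.9 to 34.8 FPKM over the libraries. Markers of differentiated cells were also present, with 3 endodermis genes summing to 467 to 1366 FPKM and 4 root hair genes to 285 to 1027 FPKM.

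Over the whole time course 14 of the 40 histone genes tested (35.0%) differed between time points by limma's F test, against 29.7% of all loci. They were 7 of 26 replication-coupled genes, 5 of 12 variants and both H1 genes tested. The share of called genes was thus near that of all loci, whereas the time of the peak was not: 31 of 40 histone genes (77.5%) had their highest time-point mean at 4D 16H, against 21.2% of all loci. These were 21 of 26 replication-coupled genes, 8 of 12 variants and both H1 genes. The lowest mean was at 5D in 15 of 40 (37.5%), against 14.1% of all loci. The third H1 gene, HIS1-3, known as a drought-induced H1, was below the filter. It lay between 0 and 0.344 FPKM and was listed at 0 in 7 of 19 libraries. The count of 14 depended on single libraries. It was 6, 9 and 8 without 4D 16H replicates 1, 2 and 3, 8 without 5D replicate 2 or 3 and 27 without 6D replicate 3. Over all loci the share was 25.9%, 22.9% and 29% without those 4D 16H libraries. It was 23.1% and 24.7% without 5D replicates 2 and 3, and 29.9% without 6D replicate 3.

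**Figure D1:**
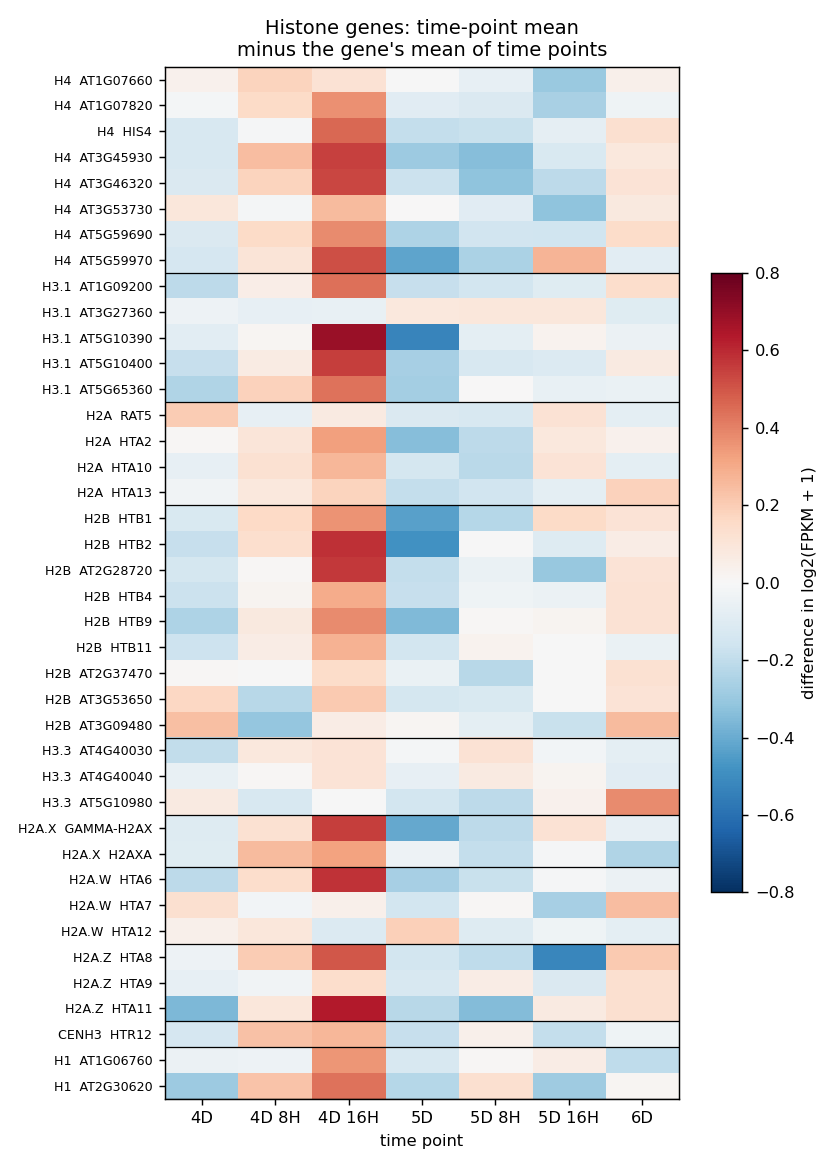
Time-point means of 40 histone genes (rows, by class) at 7 time points (columns), each as the difference in log2(FPKM + 1) from the gene's mean of time points, red above and blue below. The 4D 16H column is the highest for 31 of the 40 genes, and AT3G27360 among the H3.1 genes does not follow it.

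Before that peak no single gene passed the test. From 4D to 4D 8H 0 of 40 were called (5 at an unadjusted p under 0.05), against 0.133% of all loci (2612 of 18087 loci unadjusted). From 4D 8H to 4D 16H 0 were called (9 unadjusted), against 0% of all loci (780 loci unadjusted). Between 4D 8H and 4D 16H, 38 of 40 histone genes had a higher mean, with a median of 0.24 (log2) against 0.01 over all loci. In 28 of 40, every 4D 16H library was above both 4D 8H libraries, against 14.1% of all loci. These 28 were 20 of 26 replication-coupled genes, 6 of 12 variants and both H1 genes.

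The step from 4D 16H to 5D carried most of the changes. Here 24 of 40 histone genes fell and 0 rose, against 7.14% of all loci called lower. The median change was −0.48 over the histone genes and −0.07 over all loci. In 32 of 40 every 5D library was below every 4D 16H library, against 24.0% of all loci. AT3G27360 alone lay wholly above, 1 of 40 histone genes against 2221 of the 18087 loci. The summed FPKM of the 41 loci ranged from 3432 to 3769 in the 4D 16H libraries and from 2576 to 2934 in the 5D libraries. In bulk samples, fewer cells of a type and less RNA per cell cannot be told apart.

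**Figure D2:**
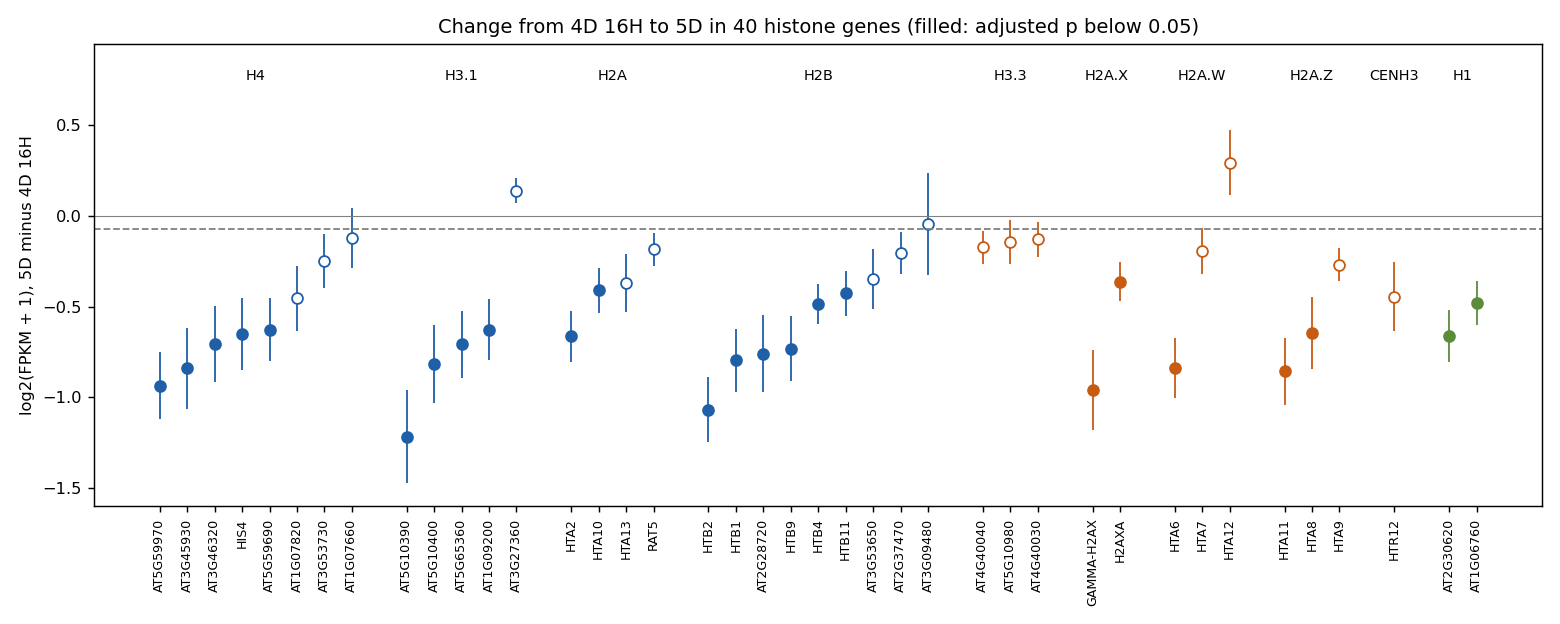
Change in log2(FPKM + 1) from 4D 16H to 5D of 40 histone genes by class, with bars of 1 standard error (limma) and filled points where the adjusted p was below 0.05. The dashed line is the median of all loci at −0.07, and the 24 filled points all lie below it, from −0.36 for H2AXA to −1.22 for AT5G10390.

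Among the H4 genes 5 of 8 fell (median −0.64). The largest fall was that of AT5G59970, with 159, 98.8 and 105 FPKM at 4D 16H and 67.5, 59.4 and 57.0 FPKM at 5D. The 3 libraries at 4D 16H were all higher, and replicate 1 stood well above the other 2. The fitted fall was 1.92-fold (log2 −0.94 ± 0.18, SE, adjusted p = 0.0070, limma). The most abundant H4 gene, AT5G59690, had 147, 149 and 162 FPKM at 4D 16H and 112, 97.9 and 87.3 FPKM at 5D, and it fell 1.54-fold (log2 −0.63 ± 0.17, adjusted p = 0.0323, limma). AT3G45930, AT3G46320 and HIS4 also fell, by −0.84, −0.71 and −0.65. Their calls were lost in 6, 15 and 17 of 30 alternatives. AT1G07660, the other octamer carrier among the H4 genes, did not pass the test. It had 31.7, 28.2 and 31.4 FPKM at 4D 16H and 32.5, 25.9 and 25.7 FPKM at 5D, which overlap (log2 −0.12 ± 0.16, adjusted p = 0.678, limma). AT1G07820 at −0.45 and AT3G53730 at −0.25 did not pass the test either.

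The H3.1 genes held the largest fall of all and also a gene with a higher mean at 5D. All 5 make the same protein, and 4 of them fell (median of the 5, −0.71). AT5G10390, the weakest of them, had 10.1, 7.11 and 7.68 FPKM at 4D 16H and 3.07, 3.26 and 2.56 FPKM at 5D. Its groups did not overlap, and the fitted fall was 2.33-fold (log2 −1.22 ± 0.26, adjusted p = 0.0091, limma), the largest among the 40 genes. Its neighbour on chromosome 5, AT5G10400, lies 577 bases away and fell by −0.82, while AT5G65360 and AT1G09200 fell by −0.71 and −0.63. AT3G27360, the most abundant H3.1 gene over all libraries, had 82.9, 82.3 and 83.1 FPKM at 4D 16H and 96.6, 89.4 and 88.1 FPKM at 5D. All 5D libraries were above all 4D 16H libraries, but the difference did not pass the test (log2 0.14 ± 0.07, adjusted p = 0.204, limma). The reads it may share with SDH2-1, which is not analysed here, were not separated, and their part in this value was not tested. Its share of summed H3.1 FPKM was 21.6% to 23.3% at 4D 16H and 33.9% to 35.0% at 5D.

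**Figure D3:**
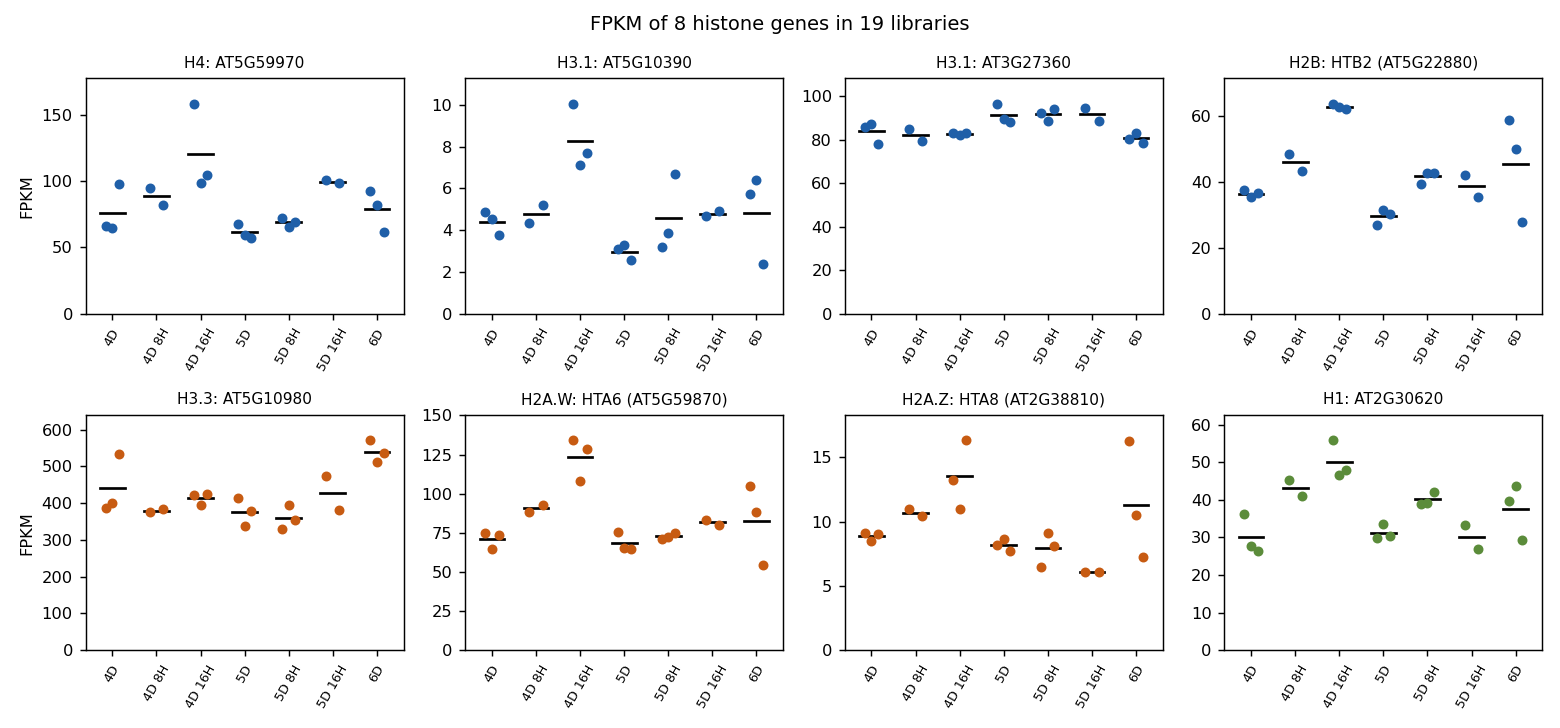
FPKM of 8 histone genes in each of the 19 libraries by time point, with a bar at each time-point mean (blue, replication-coupled, orange, variants, green, H1). HTB2 lies between 62.1 and 63.8 at 4D 16H and between 26.9 and 31.4 at 5D, while AT3G27360 stays between 78.3 and 96.6 in all libraries.

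H2A and H2B pair into the dimers that flank the H3-H4 core. Of the 4 H2A genes, 2 fell (median −0.39). HTA2 had 45.5, 40.9 and 45.1 FPKM at 4D 16H and 29.0, 27.8 and 25.1 FPKM at 5D, without overlap, a fall of 1.59-fold (log2 −0.66 ± 0.14, adjusted p = 0.0097, limma). HTA10, the most abundant, had 151, 135 and 144 FPKM at 4D 16H and 127, 98.8 and 99.2 FPKM at 5D. It fell 1.33-fold (log2 −0.41 ± 0.12, adjusted p = 0.0459, limma), a call that was lost in 18 of 30 alternatives. HTA13 (−0.37) and RAT5 (−0.18), a gene known for its role in Agrobacterium transformation, did not pass.

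Of the 9 H2B genes, 6 fell (median −0.49). HTB2 had 63.8, 62.8 and 62.1 FPKM at 4D 16H and 26.9, 31.4 and 30.2 FPKM at 5D. The gap between the groups was far wider than the spread within either, and the fall was 2.1-fold (log2 −1.07 ± 0.18, adjusted p = 0.0051, limma). HTB4, the most abundant H2B gene, had 154, 142 and 151 FPKM at 4D 16H and 107, 107 and 105 FPKM at 5D, a fall of 1.4-fold (log2 −0.48 ± 0.11, adjusted p = 0.0135, limma). HTB1, AT2G28720, HTB9 and HTB11 fell by −0.80, −0.76, −0.73 and −0.43, and the call of HTB11 was lost in 10 of 30 alternatives. AT3G53650 (−0.35), AT2G37470 (−0.20) and AT3G09480 (−0.04) did not pass the test.

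The variants had a smaller median change. Of 12 variant genes 5 fell, with a median of −0.32 against −0.63 for replication-coupled genes. None of the 3 H3.3 genes passed (median −0.14). AT5G10980, the most abundant of all 41 loci per length, had 424, 396 and 426 FPKM at 4D 16H and 414, 338 and 378 FPKM at 5D, which overlap (log2 −0.14 ± 0.12, adjusted p = 0.477, limma). AT4G40040 and AT4G40030, which lie 42 bases apart on chromosome 4, had changes of −0.17 and −0.13.

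Both H2A.X genes fell. GAMMA-H2AX had 39.6, 36.2 and 41.5 FPKM at 4D 16H and 21.1, 17.8 and 20.0 FPKM at 5D, a fall of 1.95-fold (log2 −0.96 ± 0.22, adjusted p = 0.0139, limma). H2AXA was at 58.7, 57.4 and 57.9 FPKM at 4D 16H and 47.9, 41.2 and 45.9 FPKM at 5D, a smaller fall of 1.29-fold (log2 −0.36 ± 0.11, adjusted p = 0.0399, limma), lost in 12 of 30 alternatives. Neither pair of groups overlapped. The protein-coding locus opposite GAMMA-H2AX, AT1G54680, lay between 0 and 1.25 FPKM in all libraries.

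Among the H2A.W genes, HTA6 fell and the other two did not pass. HTA6 had 134, 108 and 129 FPKM at 4D 16H and 75.3, 65.5 and 64.9 FPKM at 5D, a fall of 1.79-fold (log2 −0.84 ± 0.17, adjusted p = 0.0074, limma). HTA7 had 87.3, 103 and 112 FPKM at 4D 16H and 93.8, 74.9 and 95.5 FPKM at 5D, which overlap (log2 −0.19 ± 0.13, adjusted p = 0.344, limma). HTA12 had a change of 0.30 (adjusted p = 0.297, limma), and the locus opposite it, AT5G02570, lay between 0 and 9.62 FPKM.

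For H2A.Z, HTA11 and HTA8 fell. HTA11 had 41.6, 36.8 and 42.8 FPKM at 4D 16H and 24.5, 20.1 and 21.0 FPKM at 5D, a fall of 1.81-fold (log2 −0.86 ± 0.18, adjusted p = 0.0098, limma). HTA8 had 13.3, 11.0 and 16.3 FPKM at 4D 16H and 8.17, 8.64 and 7.73 FPKM at 5D, a fall of 1.57-fold (log2 −0.65 ± 0.20, adjusted p = 0.0496, limma), lost in 21 of 30 alternatives. HTA9, the most abundant H2A.Z gene, had 92.7, 87.3 and 99.3 FPKM at 4D 16H and 76.9, 72.3 and 82.2 FPKM at 5D. Its groups did not overlap, but the change missed the threshold (log2 −0.27 ± 0.09, adjusted p = 0.0733, limma).

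The centromeric histone gene HTR12 was the least abundant core histone gene, with 3.91, 3.57 and 4.23 FPKM at 4D 16H and 2.82, 2.22 and 2.78 FPKM at 5D. Its groups did not overlap and its change did not pass (log2 −0.45 ± 0.19, adjusted p = 0.138, limma). Both H1 genes tested fell. AT1G06760 had 102, 87.2 and 107 FPKM at 4D 16H and 71.8, 69.1 and 70.2 FPKM at 5D, a fall of 1.4-fold (log2 −0.48 ± 0.12, adjusted p = 0.0202, limma). AT2G30620 had 55.9, 46.7 and 48.0 FPKM at 4D 16H and 29.9, 33.6 and 30.4 FPKM at 5D, a fall of 1.58-fold (log2 −0.66 ± 0.14, adjusted p = 0.0097, limma).

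The number of calls at this step rested on the 6 libraries compared. It was 11, 12 and 11 without 4D 16H replicates 1, 2 and 3, and 15, 9 and 10 without 5D replicates 1, 2 and 3, with every called gene lower. The share of all loci called in either direction fell too, from 10.7% with all libraries. It was 5.76%, 5.79% and 8.05% without the same 4D 16H libraries, and 5.05%, 4.41% and 5.04% without the same 5D libraries. With library weights 31 histone genes were called, 29 lower and 2 higher, against 39.2% of all loci called in either direction. Calls held in all alternatives for 9 genes: AT5G59970, AT5G10390, HTA2, HTB1, HTB2, HTB4, HTA6, HTA11 and AT2G30620. Over all loci the split of calls at this step moved with scaling, from 33.2% higher to 45.6% with upper quartile scaling and 48.7% with quantile normalization. The median of replication-coupled genes was then −0.57 in both cases, that of variants −0.26 and −0.27, and that of all loci −0.02 and 0.0062, the last with its sign turned. Cell type markers moved at the same step. The summed stem cell niche markers were 30.5 to 34.8 FPKM at 4D 16H and 27.1 to 30.3 FPKM at 5D, with PLT1 and PLT2 lower (−0.86 and −0.64) and WOX5 higher (1.53). The 3 root cap markers summed to 269 to 310 FPKM and then 195 to 228 FPKM, with 2 called lower. The 3 endodermis markers summed to 683 to 807 FPKM and then 979 to 1366 FPKM, with 0 called. None of these markers was at 0 in every library, and their part in the histone result was not tested.

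Replication-coupled genes and variants were then set side by side at this step. The former had 17 of 26 called lower (65.4%) and a median of −0.63, the latter 5 of 12 (41.7%) and a median of −0.32, against 7.14% and −0.07 over all loci. Whether these shares differ was not tested. At 4D 16H and 5D, with 3 libraries each, the summed FPKM (mean ± SD, n = 3) was 2200 ± 119 and 1551 ± 135 for replication-coupled genes. It was 1288 ± 47.3 and 1069 ± 76.1 for variants. H3.1 made up 31.2% to 31.9% of the summed H3.1 and H3.3 FPKM at 4D 16H and 21.0% to 29.1% in the other 16 libraries, so the 4D 16H libraries stood above all others. The mean was 31.5% ± 0.361 (SD, n = 3) in the 4D 16H libraries, compared with 26.8% ± 1.37 (SD, n = 3) in those of 5D. Without AT3G27360 the share was 25.8% to 26.7% at 4D 16H and 14.6% to 23.1% elsewhere. H2A did not follow this pattern. The variants' share of all H2A FPKM was 56.4% to 58.7% at 4D 16H and 54.3% to 56.8% at 5D, which overlap.

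**Figure D4:**
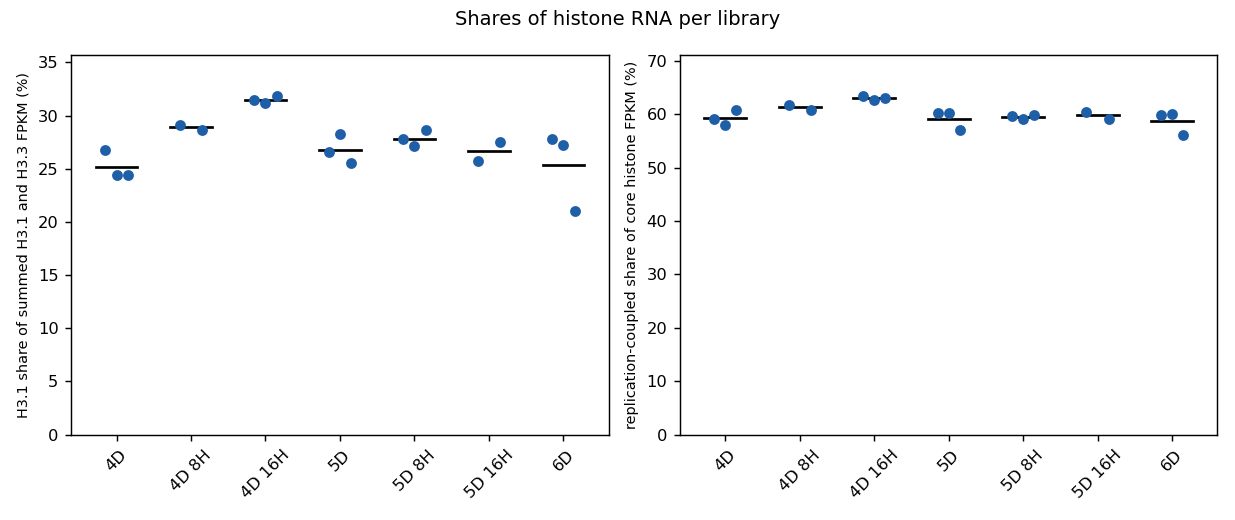
H3.1 share of summed H3.1 and H3.3 FPKM (left) and replication-coupled share of core histone FPKM (right), in percent, by library and time point, with bars at the means. At 4D 16H the H3.1 share was 31.2% to 31.9% and the replication-coupled share 62.6% to 63.5%, the highest values in each panel, and 6D replicate 3 has the lowest of both.

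Genes with and without the promoter strings were also set side by side. Of the 10 octamer carriers 7 fell, with a median of −0.55, and of the 30 other genes tested 17 fell, with a median of −0.47. Within the replication-coupled genes the medians were −0.63 for the 7 carriers and −0.65 for the 19 others. The 3 genes with an E2F string (AT3G45930, AT3G46320 and HTB2) all fell, with a median of −0.84, and the first 2 have nearly the same promoter. Of the 37 without one 21 fell, with a median of −0.45. Of 12 hexamer carriers 7 fell (median −0.47), and of the 28 others 17 fell (median −0.55). Of 16 genes with TTTGAA 9 fell (median −0.46), and of the 24 others 15 fell (median −0.56). Whether any string goes with the size of the fall was not tested.

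After 5D the histone genes changed little from step to step. From 5D to 5D 8H 0 of 40 were called (2 unadjusted), against 0.0498% of all loci (1977 of 18087 loci unadjusted). From 5D 8H to 5D 16H 0 were called (4 unadjusted), against 6.96% of all loci (4673 loci unadjusted). Leaving out 5D 16H replicate 1 leaves only the shallow library there. A lone library, at 4D 8H or 5D 16H, is then assumed to vary like the other time points. Between the ends of the series, 4D and 6D, 0 were called (6 unadjusted), against 7.59% of all loci (3817 loci unadjusted). The count of histone genes called between these ends was 1 without 4D replicate 3 and 8, all higher, without 6D replicate 3. Over all loci 10.2% and 6.18% were then called in either direction.

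From 5D 16H to 6D 2 of 40 histone genes (5.0%) rose, both of them variants. That share was near the 5.72% of all loci called higher. HTA7 (H2A.W) had 83.8 and 78.0 FPKM at 5D 16H and 132, 119 and 98.7 FPKM at 6D, a rise of 1.43-fold (log2 0.51 ± 0.14, adjusted p = 0.0309, limma). HTA8 (H2A.Z) had 6.05 and 6.08 FPKM at 5D 16H and 16.3, 10.5 and 7.21 FPKM at 6D, a rise of 1.67-fold (log2 0.74 ± 0.22, adjusted p = 0.0429, limma). All 6D libraries were above both 5D 16H libraries in each gene, and 6D replicate 3 was the lowest of the 3. The most abundant H3.3 gene, AT5G10980, had 475 and 381 FPKM at 5D 16H and 571, 513 and 537 FPKM at 6D, the highest of its time-point means. That step missed the threshold (log2 0.34 ± 0.14, adjusted p = 0.109, limma), though the gene differed over the 7 time points (F test, adjusted p = 0.0251, limma). These calls were the least secure. The count was 0 without 5D 16H replicate 2, the shallow library, 0 without 6D replicate 1 or 2, 6 without 5D 16H replicate 1 and 7 without 6D replicate 3. It was 1, HTA7, without any of the 3 4D, 2 4D 8H or 3 5D libraries, or without 5D 8H replicate 2 or 3.

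The steps into day 5 and into day 6 cover the same interval one day apart, and their difference was tested directly, as the later step minus the earlier. The difference passed in 16 of 40 histone genes. In 15 the later step was higher, against 9.38% of all loci, and in 1, AT3G27360, it was lower, against 6.82% of all loci. The 15 were 9 replication-coupled genes, 5 variants and the H1 gene AT2G30620, and the median difference was 0.66 for replication-coupled genes, 0.56 for variants and 0.10 for all loci. With quantile normalization the all-loci median was 0.02, and 48.7% of all calls were higher in place of 57.9%. Since the earlier step enters this difference, it is not separate evidence on the fall into 5D.

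HTA8 had the largest difference (1.38 ± 0.30, adjusted p = 0.0092, limma), and its call held in all alternatives. At the estimated depth only about 3.64 reads stood behind HTA8 in 5D 16H replicate 2. HTB2 followed (1.24 ± 0.27, adjusted p = 0.0093, limma), with 42.3 and 35.3 FPKM at 5D 16H and 58.7, 50.1 and 27.9 FPKM at 6D. The 6D libraries of HTB2 lay on both sides of those at 5D 16H. AT2G28720 had 5.18 and 8.21 FPKM at 5D 16H and 13.9, 8.03 and 6.52 FPKM at 6D, which also overlap (difference 1.17 ± 0.32, adjusted p = 0.0231, limma). AT3G45930 (1.05 ± 0.34, adjusted p = 0.0445, limma) and AT3G46320 (1.02 ± 0.32, adjusted p = 0.0396, limma) came next, and their calls were lost in 17 and 14 of 29 alternatives. Of the 16 genes, HTA7 and HTA8 were also called higher from 5D 16H to 6D. AT3G27360 was the reverse, with 94.8 and 88.6 FPKM at 5D 16H and 80.3, 83.0 and 78.7 FPKM at 6D (difference −0.32 ± 0.10, adjusted p = 0.0468, limma). Its call was lost in 21 of 29 alternatives. The count of 16 was 10 without either 4D 8H library or 5D 8H replicate 1, 8 and 6 without 4D 16H replicates 1 and 3, 5 and 6 without 5D replicates 2 and 3, 5 without 5D 16H replicate 2, 5 without 6D replicate 1 or 2 and 25 without 6D replicate 3.

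**Figure D5:**
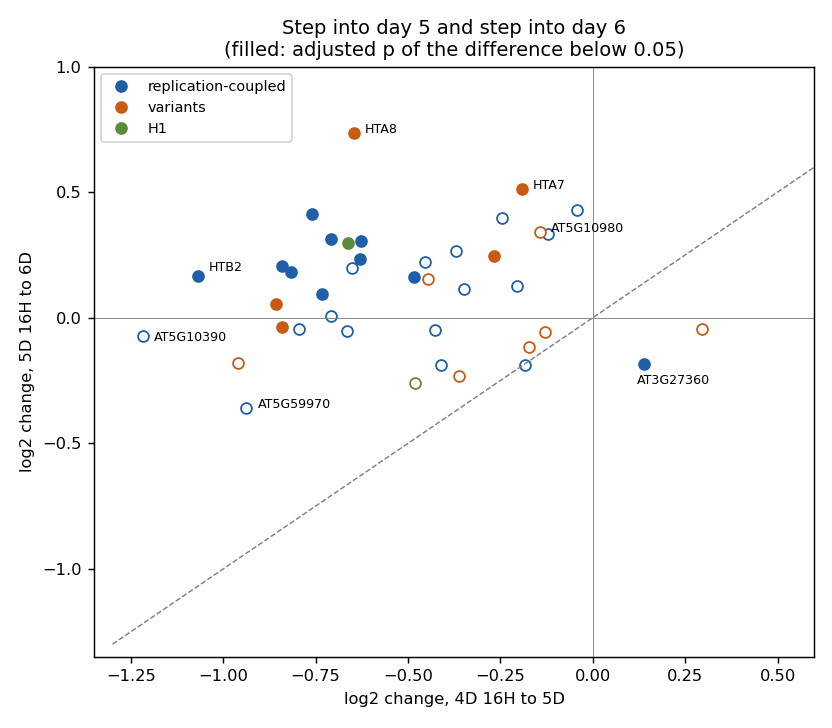
Change in log2(FPKM + 1) of 40 histone genes from 4D 16H to 5D (x) and from 5D 16H to 6D (y), filled where the adjusted p of the difference was below 0.05, with equal changes on the dashed line. Of the 16 filled points 15 lie above the line and AT3G27360 lies below it.

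Genes that act with histones were counted as a frame for these changes. Of 25 chaperones, remodellers and histone H3 methyltransferases 23 were tested, of which 5 fell from 4D 16H to 5D (FAS2, ASF1B, NAP1;1, NRP1 and ATXR6) and 0 rose, with a median of −0.33. That is 21.7% called lower, against 7.14% and a median of −0.07 over all loci. ASF1B, a chaperone that hands H3-H4 to assembly factors, had 8.90, 7.89 and 7.91 FPKM at 4D 16H and 4.64, 5.22 and 4.72 FPKM at 5D (log2 −0.66 ± 0.15, adjusted p = 0.0156, limma). FAS2, a subunit of the CAF-1 complex that places H3.1, had 1.88, 2.35 and 2.39 FPKM and then 1.32, 1.11 and 1.10 FPKM (log2 −0.56 ± 0.15, adjusted p = 0.0299, limma). NRP1, an H2A-H2B chaperone, went from 33.6, 34.5 and 39.4 FPKM to 24.5, 21.3 and 20.2 FPKM (log2 −0.68 ± 0.17, adjusted p = 0.0222, limma). In none of these 3 did the groups overlap. From 5D 16H to 6D 3 of the 23 were called higher (13.0%, against 5.72% of all loci). Among them was ATXR5, which methylates H3.1 and also differed over the time course. It rose at that step (log2 0.99 ± 0.26, adjusted p = 0.0252, limma), and the shallow 5D 16H library held its lowest value, 1.33 FPKM.

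Of 11 S-phase genes, which encode the replicative helicase, the sliding clamp and ribonucleotide reductase, 7 fell from 4D 16H to 5D (63.6%, against 7.14% of all loci called lower) and 0 rose. Their median was −0.59, against −0.07 over all loci. The helicase gene MCM2 had 7.09, 6.10 and 6.94 FPKM at 4D 16H and 3.89, 3.93 and 3.80 FPKM at 5D (log2 −0.66 ± 0.17, adjusted p = 0.0253, limma). MCM4 had 6.79, 6.65 and 7.50 FPKM and then 4.36, 4.28 and 4.54 FPKM, without overlap, and missed the threshold (log2 −0.56 ± 0.20, adjusted p = 0.0789, limma). Both MCM2 and MCM4 rose from 5D 16H to 6D (0.71 ± 0.19, adjusted p = 0.0277, and 0.82 ± 0.22, adjusted p = 0.0282, limma), and were the 2 of 11 called there, against 5.72% of all loci called higher. Their lowest values, 1.99 and 1.61 FPKM, were in the shallow 5D 16H library. Single-gene calls were followed through the alternatives for histone genes only. How the chaperone and S-phase calls depend on single libraries was therefore not examined.

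Across the 19 libraries most replication-coupled genes varied together, as a description of libraries that share depth and sorting. Pearson's r on log2(FPKM + 1) had a median of 0.632 over their 325 pairs (range −0.656 to 0.96). It was 0.444 over the 66 pairs of variants and 0.479 over the 312 pairs between the classes. No value over all loci was computed to set beside these. After the time-point means were subtracted the medians were 0.541, 0.496 and 0.463. Before subtraction AT3G27360 had a median of −0.315 with the other 25 replication-coupled genes (range −0.656 to −0.028), and RAT5 one of 0.084. After subtraction these medians were 0.149 (range −0.362 to 0.428) and −0.021, so that RAT5 was then the lower. The H2B gene AT3G09480 had medians of 0.188 before and 0.359 after subtraction. Among the variants, the medians with the 26 replication-coupled genes before and after subtraction were 0.838 and 0.734 for HTA6 and 0.787 and 0.651 for HTA11. They were 0.022 and 0.348 for HTA12, and 0.518 and 0.255 for H2AXA.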

How the data were processed

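RNA-seq had been run on 19 libraries of GFP-negative sorted cells, 2 or 3 per time point, which the study calls biological replicates. The authors deposited FPKM values, 1 column per library. The labels' processing notes name TopHat, Cufflinks and the TAIR10 build, whereas the methods name Bowtie, Tuxedo and Rsubread, and no versions are stated. No counts were used here, so depth and precision were only approximated.

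FPKM were transformed to log2(FPKM + 1), loci with a mean under 1 FPKM were left out, and 18087 loci were fitted across 7 time points with limma 3.58.1 (R 4.3.3, empirical Bayes with a mean-variance trend). Benjamini-Hochberg adjustment covered all loci tested and the threshold was 0.05. Adjacent time points, 4D against 6D, and the difference between the steps into 5D and 6D were contrasts. A pseudocount understates the changes of low genes. The procedure was tested on simulated data. Sequences came from RefSeq (TAIR10.1).

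Named genes were, per class, the most abundant and the one with the smallest F-test p; the 5 largest called changes per direction for the step into 5D and for the difference; members called elsewhere or below the filter; and chaperone, remodeller and S-phase genes that passed the F test. Other genes named were chosen after their values were seen. The members and lists were chosen with earlier results of these data known. Alternatives covered the pseudocount (0.1), the filter (none, or 5 FPKM), scaling, a replicate block, library weights, the variance model, the samples in the fit, duplicate loci, and each library left out in turn.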

Additional observations from a re-analysis of the deposited data

Results flagged for a closer look

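The change from 5D 16H to 6D differed from the change from 4D 16H to 5D in 16 histone genes, by a test of the difference itself (limma, adjusted p below 0.05). The difference, later step minus earlier step on the log2 scale, was 1.38 for HTA8, 1.24 for HTB2, 1.17 for AT2G28720, 1.05 for AT3G45930, 1.02 for AT3G46320 and 1.00 for AT5G10400. It was 0.96 for the H1 gene AT2G30620, 0.93 for AT5G59690, 0.91 for HTA11, 0.86 for AT1G09200, 0.83 for HTB9 and 0.80 for HTA6. It was 0.70 for HTA7, 0.65 for HTB4 and 0.51 for HTA9. AT3G27360 alone among the 16 had a negative difference, −0.32. The 5D 16H time point had 2 libraries, of which replicate 2 was shallow, and 6D replicate 3 was the lowest of its time point in 36 of 40 histone genes. The part of either in these differences was not tested beyond leaving each out, which gave 5 called genes without 5D 16H replicate 2 and 25 without 6D replicate 3.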

How the results depend on the processing

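No called change of a histone gene and no class median into 5D changed direction in any alternative, although the median of all loci into 5D went from −0.07 to 0.0062 and that from 5D 8H to 5D 16H from −0.07 to 0.0035 with quantile normalization. Leaving out 1 library at a time gave 6 to 27 called histone genes in the F test (14 with all libraries), 9 to 26 from 4D 16H to 5D (24), 0 to 2 from 5D 8H to 5D 16H (0), 0 to 7 from 5D 16H to 6D (2), 0 to 8 from 4D to 6D (0) and 5 to 25 for the difference between the steps (16). Calls over all loci into 5D moved too, being 10.7% with all libraries, 4.41% without 5D replicate 2 and 14.5% without 6D replicate 3. The median change into 5D stayed between −0.66 and −0.54 for replication-coupled genes and between −0.35 and −0.26 for variants. The H3.1 share at 6D was 24.1% to 27.5%, with 27.5% without replicate 3. With no filter on low values the counts were 8 in the F test, 14 into 5D, 1 into 6D and 9 for the difference. With library weights they were 31 in the F test, 31 into 5D (29 lower and 2 higher), 2 from 4D to 4D 8H, 2 from 5D to 5D 8H, 0 into 6D, 4 from 4D to 6D and 10 for the difference. With only the time points compared in the fit, 0 were called into 6D and 2 for the difference. From 5D 8H to 5D 16H, the share of higher calls over all loci went from 26.1% to 43.9% with quantile normalization, and for the difference from 57.9% to 48.7%. The causes were not tested. Of single-gene calls into 5D, 112 of 456 were lost when a library was left out and 26 of 263 in other alternatives.

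Replicate numbers showed no clear pairing of the libraries. Deviations from the time-point means correlated at a mean r of 0.0097 over 52 pairs with the same number, of which 10 exceeded 0.1. Over 102 pairs with different numbers the mean r was −0.0048, and 18 exceeded 0.1. Of 19 libraries 8 correlated best with their own number, and the share to be met without pairing was not computed. With the replicate block, 13 histone genes were called in the F test, 23 into 5D, 0 into 6D and 14 for the difference.

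Depth limits the weakest genes most. At the estimated depths, about 3.02 reads stood behind AT5G10390 in 5D 16H replicate 2 and at least 16.1 in the other 18 libraries.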
